A study of Mus musculus with 2 samples.

Results

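*Rora*, *Sox13*, *Maf*, *Blk*, *Zbtb16*, *Ahr*, *Batf*, *Id2* and *Tbx21* were taken as regulators of the type 17 lymphocyte lineage and its neighbours, by their symbols in the gene lists of the count matrices. They are 9 of the 31053 genes counted, and all 9 were found in both libraries. Wild type C57BL/6 mice had been treated for 5 days with imiquimod (IMQ), which stimulates innate RNA sensors and gives the skin psoriasis-like inflammation. The labels give the ear as the site and an age of 10 weeks, and the methods give 7 weeks. Dermis and epidermis were digested apart, sorted by flow cytometry and made into 1 droplet 3′ single-cell RNA library each. The labels speak of live cells for both layers, whereas the methods loaded all live cells of the epidermis but CD45+ live cells of the dermis. Untreated skin is not in this comparison, so no value below is an effect of IMQ, and with 1 library per layer the layer and the library cannot be told apart.

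Type 17 lymphocytes make IL-17A, IL-17F and IL-22, and in mouse skin they include γδT cells of the dermis that carry innate-like features from the thymus and αβT cells primed later in life. The nuclear receptors RORγt and RORα set up their cytokine genes, and SOX13, c-MAF and PLZF act earlier, in the thymic branch that yields IL-17-producing γδT cells. The epidermis of the mouse holds a different γδT cell, the dendritic epidermal T cell, which patrols keratinocytes and is known for growth factor and cytotoxic functions rather than for IL-17.

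The sequences upstream of the start sites are shown for the 3 members with an entry in the RefSeq promoter table and the most transcripts in dermal T cells, counted as unique molecular identifiers (UMIs). They are the 250 bases before the RefSeq start of *Rora* (chr9:68653536-68653785, plus strand), *Batf* (chr12:85686470-85686719, plus strand) and *Id2* (chr12:25096093-25096342, minus strand) in GRCm38.p6, written 5′ to 3′. Capitals mark the matches to the motifs searched on both strands.
Rora: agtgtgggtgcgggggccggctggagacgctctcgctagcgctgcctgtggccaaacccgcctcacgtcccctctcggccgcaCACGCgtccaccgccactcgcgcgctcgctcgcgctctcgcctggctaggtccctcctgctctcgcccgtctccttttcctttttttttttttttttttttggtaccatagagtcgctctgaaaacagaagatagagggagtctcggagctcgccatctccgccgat
Batf: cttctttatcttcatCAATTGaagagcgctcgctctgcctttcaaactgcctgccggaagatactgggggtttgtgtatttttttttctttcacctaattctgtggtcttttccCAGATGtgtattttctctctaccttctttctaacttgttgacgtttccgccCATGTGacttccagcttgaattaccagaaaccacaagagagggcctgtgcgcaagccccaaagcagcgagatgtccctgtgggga
Id2: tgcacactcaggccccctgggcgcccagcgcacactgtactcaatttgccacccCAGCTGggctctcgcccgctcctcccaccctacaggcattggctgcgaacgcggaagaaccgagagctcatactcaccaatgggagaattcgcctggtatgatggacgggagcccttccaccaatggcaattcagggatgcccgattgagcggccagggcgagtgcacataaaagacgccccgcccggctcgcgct
The search covered the dioxin response core GCGTG, the E-box CANNTG, the ROR core AGGTCA, the AP-1 motif TGANTCA, the MAF motif TGCTGA, the SOX motif ACAAAG and the T-box motif GGTGTGA. The capitals in *Rora* are 1 dioxin response core on the other strand, at -167 to -163 from the start, a motif that 28.2% of all 32851 windows of this length in the table held. Those in *Batf* and *Id2* are E-boxes, of which *Batf* had 3 (at -235, -136 and -85) and *Id2* had 1 (at -196), and 66.2% of all windows held at least 1. *Tbx21* also had 1 E-box, at -196, and the window of *Sox13* held none of the 7 motifs. A match of a few letters is a description of the sequence and not a binding site. *Maf*, *Blk*, *Zbtb16* and *Ahr* have no window shown.

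After the limits on genes and mitochondrial UMIs, 4747 dermal cells (median of 7010 UMIs) and 4173 epidermal cells (median of 25918) remained, and 45 barcodes occurred in both libraries. T cells were gated by *Cd3d*, *Cd3e* and *Cd3g* UMIs, which gave 252 dermal and 470 epidermal T cells. Cells with a *Trdc* UMI and no *Trac* UMI were called Trdc+, and the reverse Trac+. There were 78 Trdc+ and 126 Trac+ dermal T cells, with medians of 9722 and 6318.5 UMIs, and 401 Trdc+ and 19 Trac+ epidermal T cells, with medians of 2351 and 6166 UMIs. *Tcrg-C1*, a γ-chain constant gene that was not used in the gate, had a UMI in 63 of the 78 dermal Trdc+ cells (80.8%) and in 373 of the 401 epidermal Trdc+ cells (93.0%), but also in 23 of the 126 dermal Trac+ cells (18.3%). Of the dermal Trac+ cells, 45 had a *Foxp3* UMI and are called Foxp3+, and 37 of these 45 had a UMI of the regulatory gene *Ctla4*. *Cd4* had a UMI in 38 of the 126 dermal Trac+ cells and in 0 of the 401 epidermal Trdc+ cells. A further 23 dermal and 43 epidermal T cells had UMIs of both chains, and 25 and 7 had neither. All levels below are UMIs per 1000000 UMIs of the cell group (CPM), and intervals are exact at 95% and cover counting error only, not the spread between mice.

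The 9 genes differed in how far their transcripts were a matter of T cells. T cells were 5.31% of the kept dermal cells and held 6.05% of their UMIs. They held 81.5% of the dermal UMIs of *Blk* (312 of 383), 47.1% of those of *Sox13*, 40.5% of *Rora* and 31.7% of *Zbtb16*, but 19.1% of *Batf*, 13.2% of *Id2*, 8.39% of *Maf* and 7.09% of *Ahr*. Macrophages held 51.2% of the dermal *Maf*. In the epidermal library, where T cells held 1.23% of the UMIs, they carried 76.1% of *Blk* (67 of 88) and 70.0% of *Batf* (154 of 220), whereas keratinocytes carried 95.9% of *Rora*, 95.8% of *Maf* and 76.1% of *Ahr*. *Blk* and *Batf* were thus the members found mostly in T cells of the epidermis, and *Blk* of the dermis.

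**Figure D1:**
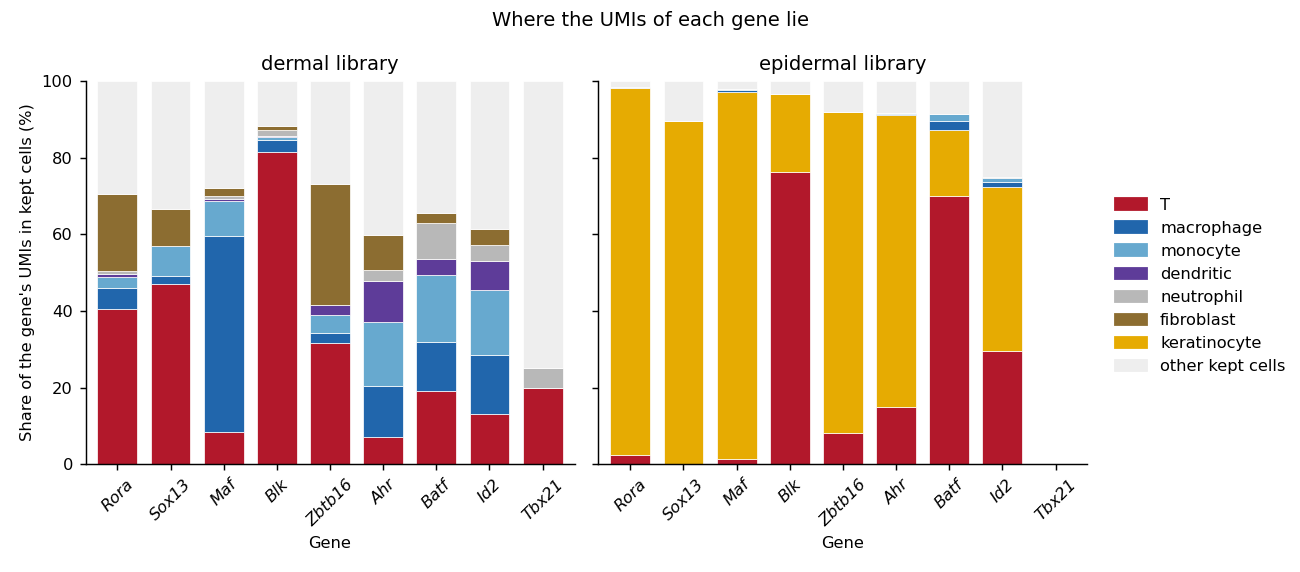
Share of each gene's UMIs in the kept cells of the dermal (left) and epidermal (right) library that lay in each marker-gated cell type, in percent, as stacked bars per gene. T cells held 81.5% of dermal *Blk* and macrophages 51.2% of dermal *Maf*, and keratinocytes held 95.9% of epidermal *Rora*. *Tbx21* had no UMI in the epidermal library.

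*Rora* (ENSMUSG00000032238, chr9:68653786-69388246, plus strand, GRCm38) encodes the nuclear receptor RORα, a partner of RORγt in type 17 cells that is also used by other lymphocytes and by epithelium. Its 380 UMIs in dermal T cells lay in 150 of 252 cells. The level was 298 CPM in Foxp3+ cells (97 UMIs in 30 of 45 cells, interval 241 to 363), 164 CPM in Foxp3- Trac+ cells (130 UMIs in 52 of 81, interval 137 to 195) and 130 CPM in Trdc+ cells (112 UMIs in 46 of 78, interval 107 to 156). Foxp3+ cells were the highest of the 24 cell groups and lay 1.81-fold above the next, Foxp3- Trac+ cells (interval 1.38 to 2.38). With each cell thinned to 1000 UMIs the log2 ratio of these groups was -0.37, on few UMIs. With each cell thinned to 2000 UMIs, 39.0% of Foxp3+ and 25.7% of Foxp3- Trac+ cells kept a UMI, with overlapping intervals. Foxp3- Trac+, epidermal Trac+ (149 CPM, 18 UMIs) and dermal Trdc+ cells did not differ beyond counting error. Epidermal Trdc+ cells had 31.9 CPM (32 UMIs in 27 of 401 cells), close to the 24.6 CPM of basal keratinocytes around them (ratio 1.30, interval 0.884 to 1.84). Outside T cells, *Rora* stood at 53.1 CPM in fibroblasts and at 48.4 CPM in suprabasal keratinocytes, which had 1.97 times the level of basal ones (interval 1.75 to 2.20). Dermal macrophages, monocytes and neutrophils had 5.63, 4.28 and 3.81 CPM. In 26 natural killer (NK) or innate lymphoid cells, gated by *Ncr1*, *Klrb1c* and *Eomes*, there was no *Rora* UMI. At 3 counts this allows up to 17.1 CPM (21.02 CPM by the exact interval). Dermal T cells were at least 9.09-fold higher than these 26 cells against the floor of 3 counts (exact lower limit of the ratio 7.36). Innate lymphoid cells without these 3 genes are not in the group. The 1186 dermal cells past no gate had 141 *Rora* UMIs in 80 cells (16.2 CPM), and their types were not resolved.

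*Sox13* (ENSMUSG00000070643, chr1:133382303-133424377, minus strand), an HMG-box factor of the γδT17 branch, was sparse. Dermal Trdc+ cells had 16 UMIs in 15 of 78 cells (18.5 CPM, interval 10.6 to 30.1) and dermal Trac+ cells 4 UMIs in 3 of 126 cells (3.58 CPM). Outside T cells, endothelial cells had 6 UMIs (11.3 CPM, interval 4.15 to 24.6), and Schwann and mast cells had 2 UMIs each, with intervals that reached above the level of Trdc+ cells. No epidermal T cell had a *Sox13* UMI, which at 3 counts allows up to 2.32 CPM in 470 cells (2.855 CPM by the exact interval). Of the 24 *Sox13* UMIs in dermal T cells, 16 were thus in Trdc+ cells.

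*Maf* (ENSMUSG00000055435, chr8:115682942-115707794, minus strand) encodes c-MAF, a bZIP factor needed for IL-17-producing γδT cells and also used by tissue macrophages. Dermal macrophages were its highest group, with 2068 UMIs in 603 of 853 cells and 224 CPM (interval 214 to 234), 3.66 times the monocyte level (interval 3.28 to 4.10). T cells followed closely. The level was 163 CPM in Foxp3+ cells (53 UMIs), 137 CPM in dermal Trdc+ cells (118 UMIs in 51 of 78 cells) and 121 CPM in Foxp3- Trac+ cells (96 UMIs), and these 3 did not differ from neighbour to neighbour beyond counting error. Macrophage markers were present at a low level in the T-cell groups: the 7 fixed macrophage genes summed to 807 CPM in Trdc+ and 403 CPM in Trac+ cells, against 12087 CPM in macrophages, and none of the 7 was at 0. Set against *Pf4*, a macrophage gene, there were 263 *Maf* UMIs per 1000 *Pf4* UMIs in dermal Trdc+ cells, 749 in Trac+ cells and 47.6 in macrophages. Dermal T cells as a whole thus had 9.66 times the *Maf* per *Pf4* of macrophages (interval 8.58 to 10.8), a comparison added after the values were seen. Epidermal Trdc+ cells had 27.9 CPM (28 UMIs in 23 of 401), not distinguishable from the 34.6 CPM of basal keratinocytes (ratio 0.807, interval 0.535 to 1.17). Per 1000 *Krt14* UMIs they had 6.49 *Maf* UMIs against 1.81 in basal keratinocytes (ratio 3.59, interval 2.38 to 5.20), and 7.42 against 1.29 for *Rora* (ratio 5.76, interval 3.93 to 8.16).

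*Blk* (ENSMUSG00000014453, chr14:63372836-63417037, minus strand) is not a transcription factor but a Src-family tyrosine kinase of B cells and of IL-17-producing γδT cells. Dermal Trdc+ cells had 181 UMIs in 60 of 78 cells (76.9%), at 210 CPM (interval 180 to 242). Foxp3- Trac+ cells had 72 UMIs in 26 of 81 cells (32.1%), at 90.9 CPM, and Foxp3+ cells 2 UMIs in 45 cells. The 18 Foxp3- Trac+ cells of the epidermis had 21 UMIs in 9 cells (174 CPM, interval 108 to 266), which did not differ from dermal Trdc+ cells beyond counting error (1.20, interval 0.764 to 1.99), while epidermal Trdc+ cells had 23 UMIs in 12 of 401 cells (22.9 CPM). No gated group outside T cells exceeded 3.27 CPM, the value of dermal neutrophils, and macrophages had 12 UMIs in 853 cells. With each cell thinned to 1000 UMIs, 11 of 78 dermal Trdc+ cells (14.1%), 4 of 124 Trac+ cells (3.23%) and 1 of 377 neutrophils (0.265%) kept a *Blk* UMI. *Blk* was therefore above its background in both dermal Trdc+ and dermal Foxp3- Trac+ cells, but not in Foxp3+ cells.

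*Zbtb16* (ENSMUSG00000066687, chr9:48654297-48836222, minus strand) encodes PLZF, the zinc-finger factor of innate-like T cells. It was near the limit of detection, with 7 UMIs in 6 of 78 dermal Trdc+ cells (8.10 CPM, interval 3.26 to 16.7) and 5 UMIs in 4 of 81 Foxp3- Trac+ cells (6.31 CPM). Fibroblasts had 13 UMIs (3.69 CPM, interval 1.96 to 6.31), an interval that overlaps both. Epidermal T cells had 4 UMIs in 470 cells, and all 4 were in the 32 cells with at least 2 *Il17a* and *Il17f* UMIs in sum.

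**Figure D2:**
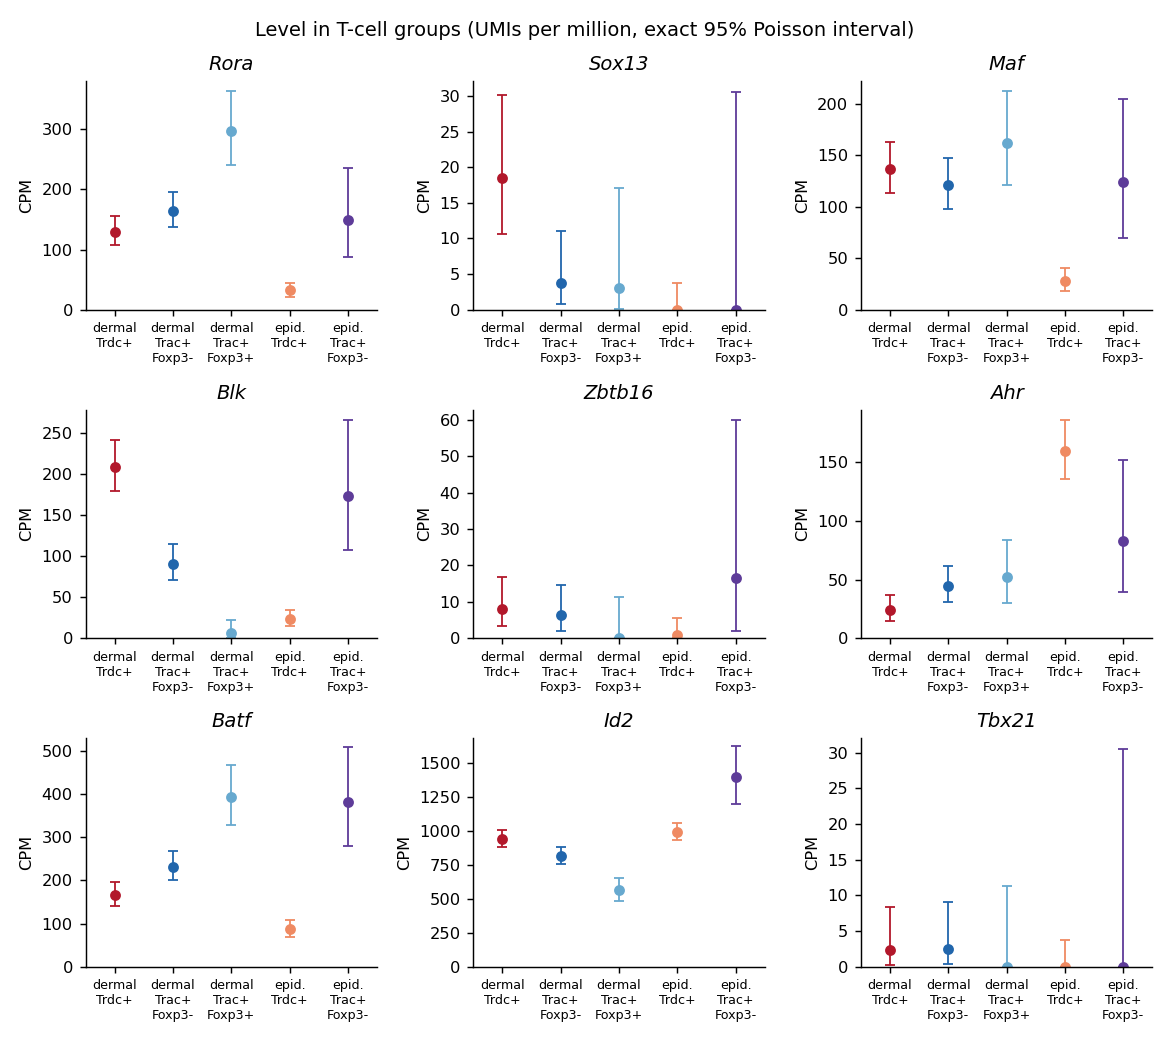
Level of each gene in 5 T-cell groups, in CPM (linear axis from 0), with points for the value and bars for the exact Poisson interval at 95%. *Blk* was highest in dermal Trdc+ cells (210 CPM), *Rora* and *Batf* in dermal Foxp3+ cells (298 and 393 CPM), and *Ahr* in epidermal Trdc+ cells (160 CPM). The *Rora* difference between dermal Foxp3+ and Foxp3- Trac+ cells varied at equal depth, where few UMIs remained. In a random draw of 1000 UMIs per cell its log2 ratio was -0.37. In another such draw 24.44% of Foxp3+ and 24.05% of Foxp3- cells kept a *Rora* UMI. At 2000 UMIs per cell the shares were 39.02% and 25.68%, with overlapping intervals.

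*Ahr* (ENSMUSG00000019256, chr12:35497974-35535038, minus strand) encodes the aryl hydrocarbon receptor, a ligand-activated factor that serves IL-22 production in type 17 cells and the upkeep of dendritic epidermal T cells. Epidermal Trdc+ cells were its highest group, with 160 UMIs in 126 of 401 cells (31.4%) and 160 CPM (interval 136 to 186), which did not differ beyond counting error from the 122 CPM of 31 Schwann cells (21 UMIs). Dermal dendritic cells had 83.4 CPM (141 UMIs in 70 of 129 cells), epidermal Trac+ Foxp3- cells 82.8 CPM (10 UMIs) and dermal Foxp3+ and Foxp3- Trac+ cells 52.1 and 44.2 CPM. Dermal Trdc+ cells were the lowest of these T-cell groups, with 21 UMIs in 15 of 78 cells and 24.3 CPM (interval 15.0 to 37.2). Keratinocytes held most *Ahr* UMIs of the epidermal library by their number and depth, but at 9.91 CPM in basal cells. After thinning to 1000 UMIs, 63 of 393 epidermal Trdc+ cells (16.0%), 14 of 124 dermal Trac+ cells (11.3%) and 0 of 78 dermal Trdc+ cells kept an *Ahr* UMI, against 0.996% of basal keratinocytes and 2.12% of neutrophils. The count of 0 in 78 cells allows up to 3.85% of cells with a UMI at that thinned depth by the limit of 3 counts (4.62% by the exact interval). It does not limit the share that expressed *Ahr*, since 15 of the same cells had a UMI before thinning.

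*Batf* (ENSMUSG00000034266, chr12:85686669-85709087, plus strand), an AP-1 factor needed for Th17 cells and for effector regulatory T cells, was at 393 CPM in dermal Foxp3+ cells (128 UMIs in 33 of 45, interval 328 to 467) and at 381 CPM in epidermal Foxp3- Trac+ cells (46 UMIs in 13 of 18), with a ratio of 1.03 (interval 0.730 to 1.48). Dermal Foxp3- Trac+ cells had 232 CPM (184 UMIs) and dermal Trdc+ cells 167 CPM (144 UMIs in 51 of 78). Each of these steps down was beyond counting error (1.64-fold and 1.39-fold). Dermal neutrophils had 138 CPM (254 UMIs in 150 of 400 cells), not separable from dermal Trdc+ cells (1.20, interval 0.975 to 1.48), and epidermal Trdc+ cells 86.8 CPM (87 UMIs in 61 of 401). In the other epidermal cells, macrophages had 26.8 CPM (5 UMIs), monocytes 24.4 CPM (4 UMIs) and basal keratinocytes 0.385 CPM. Langerhans cells had 1 UMI in 107 cells, and dermal dendritic cells 65.7 CPM.

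*Id2* (ENSMUSG00000020644, chr12:25093799-25097140, minus strand) encodes an inhibitor of E-protein factors used by innate lymphocytes, effector T cells and dendritic cells, and was detected in most T cells. Epidermal Foxp3- Trac+ cells were highest (169 UMIs, 1400 CPM). There were 994 UMIs in 319 of 401 epidermal Trdc+ cells (992 CPM, interval 931 to 1055) and 815 UMIs in 74 of 78 dermal Trdc+ cells (943 CPM, interval 880 to 1010), and the groups did not differ (0.951, interval 0.866 to 1.04). Foxp3- Trac+ cells had 817 CPM and Foxp3+ cells 564 CPM. NK or innate lymphoid cells had a UMI in 26 of 26 cells and 1208 CPM, and mast cells 1101 CPM in a group with a median of only 877 UMIs. Macrophages had 271 CPM and basal keratinocytes 19.7 CPM, so the range across cell groups was wide. After thinning, 61.5% of dermal Trdc+, 53.7% of epidermal Trdc+, 24.7% of neutrophils and 2.18% of basal keratinocytes kept an *Id2* UMI.

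*Tbx21* (ENSMUSG00000001444, chr11:97098071-97115331, minus strand) encodes T-bet, the master factor of type 1 lymphocytes, and stood for the opposing programme. NK or innate lymphoid cells, 24 of 26 of which had *Ncr1*, a gene of their gate, held 7 UMIs in 6 cells (39.9 CPM, interval 16.0 to 82.2). All 252 dermal T cells held 4 (1.64 CPM). The ratio of NK or innate lymphoid cells to T cells was 24.4 (interval 6.20 to 114). Cells that passed both of these gates are in neither group, since cells past more than 1 gate were left out. Those 514 dermal cells, of all gate pairs, held 5 *Tbx21* UMIs, and the part of this exclusion in the ratio was not tested. No *Tbx21* UMI was found in the kept epidermal cells, and in 470 epidermal T cells this allows up to 2.32 CPM at 3 counts (2.855 CPM by the exact interval).

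**Figure D3:**
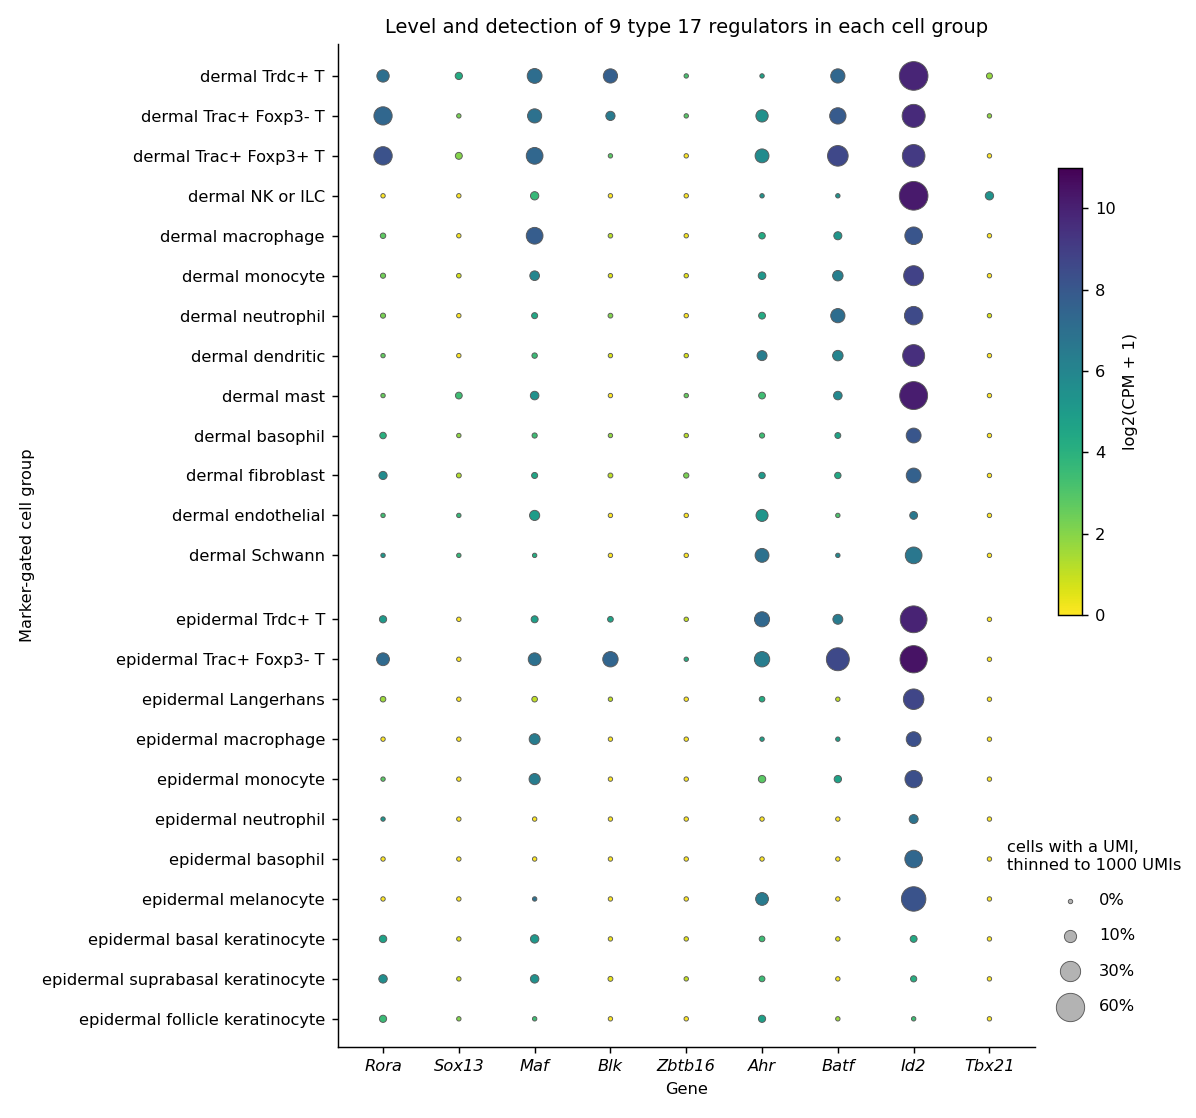
Level (colour, log2 of CPM + 1) and share of cells with a UMI after thinning each cell to 1000 UMIs (dot size, in percent) for the 9 genes (columns) in 24 marker-gated cell groups (rows). *Blk* has its largest dots in dermal Trdc+ and epidermal Trac+ cells, *Maf* is dark in macrophages (224 CPM) as well as in dermal T cells, and *Tbx21* is visible in NK or innate lymphoid cells (39.9 CPM).

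Among dermal T cells, Trdc+ and Trac+ cells differed in 2 of 7 members with at least 20 UMIs by 2-fold or more, both higher in Trdc+. These were *Blk*, at 210 against 66.2 CPM (3.17-fold, interval 2.40 to 4.21), and *Sox13*, at 18.5 against 3.58 CPM (5.18-fold, interval 1.67 to 21.3). The *Sox13* call rested on 20 UMIs, the minimum, and was lost with the study's cell limits, without the richest cells, after thinning, with *Ptprc* or at least 2 *Trdc* UMIs required, at a minimum of 50 UMIs, without Foxp3+ cells, among Il17+ cells and without *Mki67* or *Top2a* cells, each time for too few UMIs, with log2 ratios from 1.40 to 2.99. Over all 6421 genes with that many UMIs, 2.51% were at least 2-fold higher in Trdc+ cells and 5.96% in Trac+ cells, where 0 of the 7 members were. The members were chosen with earlier results of these data known. Their counts beside the shares of all genes, here and below, are therefore a description and not a test. Smaller differences beyond counting error went the other way for 3 members: the Trdc+ to Trac+ ratio was 0.639 for *Rora* (interval 0.505 to 0.804), 0.597 for *Batf* (interval 0.487 to 0.730) and 0.523 for *Ahr* (interval 0.299 to 0.883). *Id2* was 1.27-fold higher in Trdc+ cells (interval 1.15 to 1.40) but not among cells with *Il17a* or *Il17f* UMIs (0.953, interval 0.845 to 1.08), and *Maf* was level, at 137 and 133 CPM (1.02, interval 0.798 to 1.31). The *Blk* and *Rora* differences depended on which Trac+ cells entered, since 45 of the 126 were Foxp3+. Without them the log2 ratio of *Rora* was -0.34 in place of -0.64, and among cells with *Il17a* or *Il17f* UMIs its ratio was 0.858, with an interval that held 1 (0.617 to 1.20). For *Blk* the log2 ratio was 1.20 in place of 1.66 without the Foxp3+ cells, and among cells with *Il17a* or *Il17f* UMIs 0.83, below 2-fold (1.78-fold, interval 1.31 to 2.47).

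Splitting dermal T cells by cytokine transcripts gave 112 cells with at least 2 *Il17a* and *Il17f* UMIs in sum, called Il17+, and 117 with none. *Blk* was at 173 CPM in Il17+ cells (256 UMIs in 82 cells) and at 52.5 CPM in Il17- cells (39 UMIs in 19 cells), a ratio of 3.30 (interval 2.35 to 4.75). *Sox13* was the other member past 2-fold, with 19 against 4 UMIs and a ratio of 2.39 whose interval held 1 (0.794 to 9.66). These are 2 of 7 members, against 3.69% of 6647 genes, and 0 of 7 were 2-fold higher in Il17- cells, against 8.89%. *Id2* was higher in Il17+ cells (991 against 696 CPM, 1.43-fold, interval 1.29 to 1.58). At equal depth, after thinning, 51.8% of Il17+ and 50% of Il17- cells kept an *Id2* UMI. With the deeper thinning used for *Rora* the shares were 67.3% and 66%. The intervals of these shares overlapped, so the higher *Id2* level was not seen as a larger share of cells. *Rora* (0.565), *Ahr* (0.544), *Batf* (0.732) and *Maf* (0.749) were lower in Il17+ cells, each with an interval that excludes 1. The median log2 ratio of all genes was -0.13, and Il17+ cells were the deeper group, with a median of 11149 UMIs against 4982. Regulatory T cells moved with the split, since *Foxp3* had 16 UMIs in Il17+ and 78 in Il17- cells, and the 5 regulatory T-cell genes, none at 0 in either group, summed to 377 and 2178 CPM. The macrophage genes summed to 510 CPM in Il17+ and 692 CPM in Il17- cells. Without Foxp3+ cells the log2 ratios were -0.68 for *Rora*, -0.91 for *Ahr*, -0.29 for *Batf* and -0.26 for *Maf*, and *Sox13* was below 2-fold (0.99).

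The Il17 split was also made within Trac+ and within Trdc+ cells. Of 32 Il17+ Trac+ cells, 19 had a *Blk* UMI (57 UMIs, 120 CPM), against 7 of 80 Il17- Trac+ cells (13 UMIs, 25.7 CPM), a ratio of 4.67 (interval 2.52 to 9.29). Of 58 Il17+ Trdc+ cells, 48 had one (150 UMIs, 214 CPM), against 8 of 15 Il17- Trdc+ cells (19 UMIs, 151 CPM), a ratio of 1.42 whose interval holds 1 (0.875 to 2.42). Il17+ cells were deeper, with medians of 12910.5 against 5333 UMIs in Trac+ and 10595 against 7824 in Trdc+ cells. After thinning to 1000 UMIs, 4 of 32 and 0 of 78 Trac+ cells kept a *Blk* UMI, and 8 of 58 and 2 of 15 Trdc+ cells. *Id2* was 1.81-fold higher in Il17+ cells within Trac+ cells (interval 1.55 to 2.10), and its ratio was 0.986 within Trdc+ cells (interval 0.811 to 1.21). Thinned to 1000 UMIs, 40.6% of Il17+ and 38.5% of Il17- Trac+ cells kept an *Id2* UMI. With the deeper thinning used for *Rora* the shares were 71.0% and 60%. The intervals overlapped at each depth. *Batf*, lower in Il17+ cells over all dermal T cells, had a ratio of 1.30 within Trdc+ cells (interval 0.778 to 2.30). Among members with enough UMIs for a call, *Ahr* was the 1 past 2-fold within Trdc+ cells, with 14 UMIs against 7. Its ratio was 0.359 with an interval that held 1 (0.135 to 1.05), and within Trac+ cells 0.919 (interval 0.471 to 1.78). *Sox13* (15 UMIs against 1, ratio 2.69) and *Zbtb16* (5 against 2, ratio 0.448) had too few UMIs within Trdc+ cells. The share of all genes past 2-fold was not computed for this split, so the count has no background beside it. The differences between the ratios within Trac+ and within Trdc+ cells were not tested. *Foxp3* had 98 UMIs in dermal Trac+ and 0 in dermal Trdc+ cells, and over all dermal T cells 16 in Il17+ and 78 in Il17- cells. Foxp3+ cells had less *Blk* (0.0675) and *Id2* (0.691) than Foxp3- Trac+ cells. The split of Trac+ cells was not repeated without the Foxp3+ cells, so their part in its ratios was not tested.

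**Figure D4:**
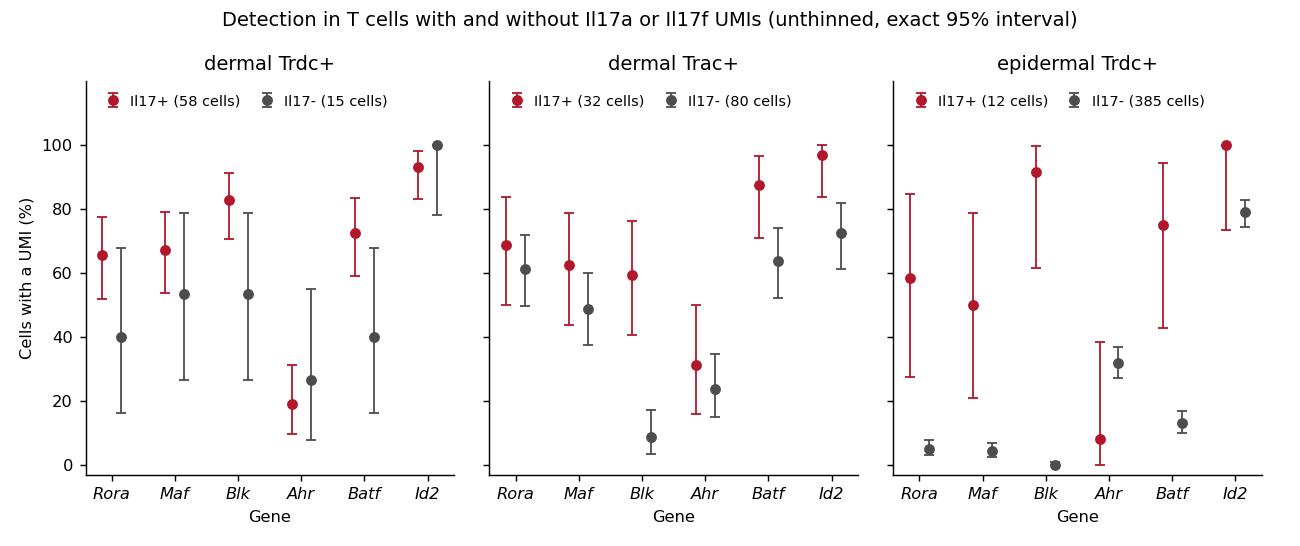
Share of cells with a UMI, in percent and without thinning, in Il17+ (red) and Il17- (grey) cells of dermal Trdc+, dermal Trac+ and epidermal Trdc+ T cells, with points for the share and bars for the exact Clopper-Pearson interval at 95%. For *Blk* the shares were 82.8% and 53.3% in dermal Trdc+, 59.4% and 8.75% in dermal Trac+, and 91.7% and 0% in epidermal Trdc+ cells.

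Foxp3+ and Foxp3- Trac+ cells of the dermis were compared because 35.7% of the dermal Trac+ cells were Foxp3+. *Blk* was the 1 of 6 members that passed 2-fold, with 2 UMIs against 72 (0.0675, interval 0.00802 to 0.253), while 4.84% of 4810 genes were 2-fold higher in Foxp3- cells. None of the 6 was 2-fold higher in Foxp3+ cells, against 9.09% of the genes, although *Rora* (1.81-fold, interval 1.38 to 2.38) and *Batf* (1.69-fold, interval 1.34 to 2.13) were higher there and *Id2* lower (0.691, interval 0.583 to 0.815). *Maf* (1.34, interval 0.941 to 1.90) and *Ahr* (1.18, interval 0.620 to 2.16) were not separated. The median log2 ratio of all genes was 0.15. The *Rora* value varied at equal depth, where few UMIs remained. With each cell thinned to 1000 UMIs, Foxp3+ cells had 9 UMIs and Foxp3- cells 21, a log2 ratio of -0.37. In a second random draw the shares of cells with a UMI were 24.4% and 24.1%. With each cell thinned to 2000 UMIs, 16 of 41 Foxp3+ cells (39.0%, interval 24.2% to 55.5%) kept a UMI. So did 19 of 74 Foxp3- cells (25.7%, interval 16.2% to 37.2%).

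Between the layers, dermal and epidermal Trdc+ cells differed by 2-fold or more in 4 of 6 members. *Blk* (9.13-fold, interval 5.90 to 14.8), *Maf* (4.89-fold, interval 3.21 to 7.67) and *Rora* (4.06-fold, interval 2.72 to 6.22) were higher in the dermal cells, as were 7.25% of 7074 genes. *Ahr* was 6.57-fold higher in the epidermal cells, with 160 against 21 UMIs, as were 28.9% of the genes, and the median log2 ratio of all genes was -0.48. *Batf* was higher in the dermal cells by less than 2-fold (1.92, interval 1.46 to 2.53). *Sox13*, with 16 UMIs against 0, was at least 6.18-fold higher in the dermal cells against the floor of 3 counts (exact lower limit of the ratio 4.47). *Zbtb16*, with 7 UMIs against 1, had a ratio of 8.12 with an interval from 1.04 to 366. Keratinocyte RNA moved with this comparison: the 5 basal keratinocyte genes summed to 5678 CPM in epidermal Trdc+ cells and to 5.79 CPM in dermal ones, with 0 and 3 of the 5 at 0, and its part in the ratios was not tested beyond the *Krt14* values above. Cytokine state moved with it as well: 58 of the 78 dermal and 12 of the 401 epidermal Trdc+ cells were Il17+. Among these cells dermal and epidermal levels were 214 and 272 CPM for *Blk*, 127 and 130 for *Maf*, 123 and 117 for *Rora*. Their intervals overlapped for each gene. Among Il17- Trdc+ cells (15 and 385) the levels were 151 and 0, 167 and 19.7, and 175 and 25.2 CPM. So for *Blk*, *Maf* and *Rora* higher dermal levels were seen among Il17- cells and could not be told from equal ones among Il17+ cells. Few UMIs stood behind both. The 12 epidermal Il17+ cells had 21, 10 and 9 UMIs, with intervals of 62.1 to 238 CPM for *Maf* and 53.3 to 221 CPM for *Rora*. The 15 dermal Il17- cells had 19, 21 and 22 UMIs, of which the richest cell for each gene held 4, 8 and 10. *Batf* was lower in dermal than in epidermal Il17+ cells, at 175.6 CPM (interval 145.9 to 209.5) and 427.6 CPM (294.4 to 600.6). Among Il17- cells it had 135.3 and 58.12 CPM, with 9 of the 17 dermal UMIs in 1 cell. *Id2* had 942.2 and 1451 CPM in Il17+ cells and 955.4 and 950.7 CPM in Il17- cells.

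**Figure D5:**
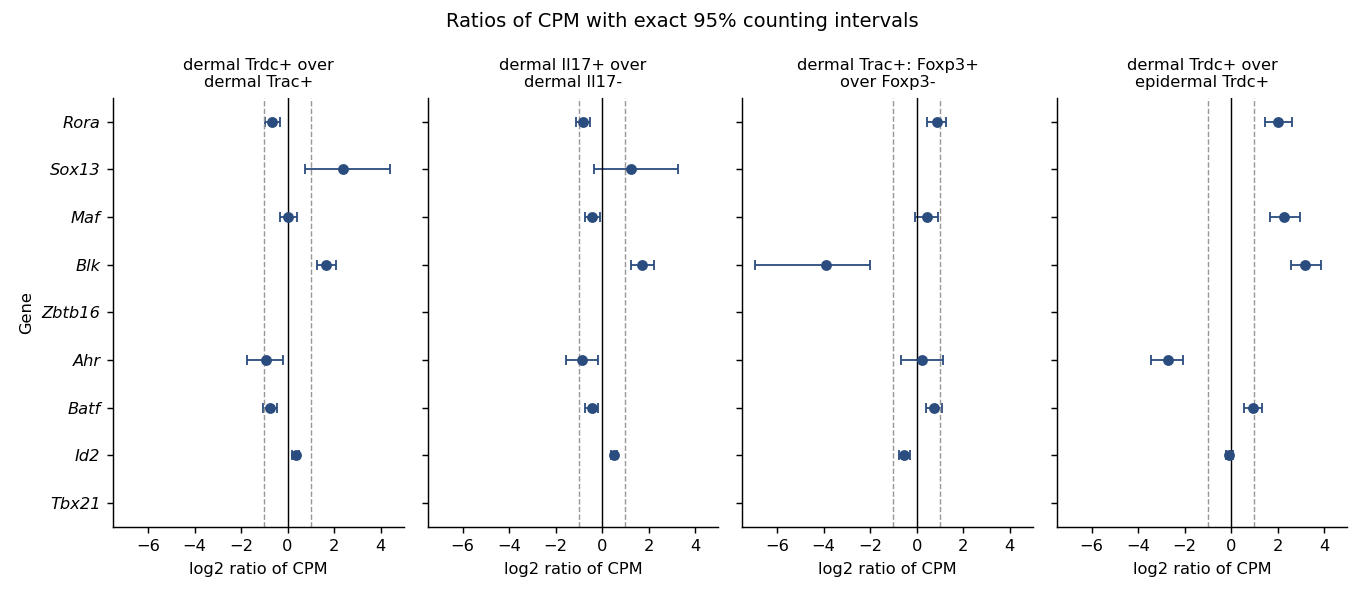
Log2 ratio of CPM for each gene in 4 comparisons, with points for the ratio and bars for its exact conditional interval at 95%. Solid lines mark equal levels and dashed lines 2-fold, and genes with under 20 UMIs in sum or 0 in a group have no point. *Blk* lies past 2-fold in all 4 panels, to the right in 3 and to the left for Foxp3+ over Foxp3- cells.

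Within the epidermis the same cytokine split was made on Trdc+ cells, a comparison added after the values were seen. Only 12 of 401 epidermal Trdc+ cells were Il17+, and 385 had no *Il17a* or *Il17f* UMI. *Blk* had 21 UMIs in 11 of the 12 Il17+ cells and 0 UMIs in the 385 Il17- cells, a difference of at least 82.7-fold against the floor of 3 counts (exact lower limit of the ratio 61.5). *Batf* was at 428 against 58.1 CPM (33 and 53 UMIs, 7.36-fold, interval 4.61 to 11.6), *Maf* at 130 against 19.7 CPM (6.57-fold, interval 2.71 to 15.0) and *Rora* at 117 against 25.2 CPM (4.62-fold, interval 1.88 to 10.4). *Ahr* went the other way, with 1 UMI in the 12 cells and 156 UMIs in 123 of the 385 (0.0758, interval 0.00191 to 0.428). The 12 cells were deeper, with a median of 6000.5 UMIs against 2334, and 6 of them had an *Mki67* or *Top2a* UMI against 48 of the 385. After thinning to 1000 UMIs, 3 of 12 and 0 of 377 cells kept a *Blk* UMI. Over all epidermal T cells, *Blk* was found in 27 of 32 Il17+ cells and in 0 of 432 Il17- cells, whereas in the dermis 8 of 15 Il17- Trdc+ cells had it. The 0 of 432 allows a share of up to 0.694% by the limit of 3 counts (0.8503% by the exact interval), which bounds cells with a UMI at a median of 2337 UMIs and not cells that expressed *Blk*.

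The 19 epidermal Trac+ cells, 12 of them Il17+, were set against both dermal Trac+ and epidermal Trdc+ cells. Relative to dermal Trac+ cells, *Rora* (0.713), *Maf* (0.905), *Ahr* (1.73) and *Batf* (1.33) had intervals that held 1, and *Blk* was 2.55-fold (interval 1.49 to 4.19) and *Id2* 1.86-fold (interval 1.57 to 2.20) higher. Relative to epidermal Trdc+ cells, *Blk* was 7.36-fold, *Rora* 4.53-fold, *Maf* 4.32-fold and *Batf* 4.26-fold higher, and *Ahr* lower (80.4 against 160 CPM). *Cd8a* was found in 5 and *Tcrg-C1* in 8 of these 19 cells.

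In single dermal T cells the members occurred together to different degrees. The median number of the 9 genes with a UMI was 4 in dermal Trdc+ cells, 3 in dermal Trac+ cells and 1 in the shallower epidermal Trdc+ cells. Of 22 dermal T cells with *Sox13*, 20 had *Blk* (90.9%), against 88 of the other 230 (38.3%), with medians of 12029 and 7407.5 UMIs. These cells mix Trdc+ and Trac+ cells, which differ in both genes. Within dermal Trdc+ cells the gap was smaller, with *Blk* in 14 of 15 cells with *Sox13* (93.3%) and in 46 of 63 without (73.0%). Of 108 dermal T cells with *Blk*, 85 had *Il17f* and 88 had *Il22*, against 38 of 144 without *Blk* for each, with medians of 11292 and 5452.5 UMIs. Within dermal Trdc+ cells, 50 of 60 with *Blk* and 11 of 18 without had *Il17f*, and 47 and 7 had *Il22*. Within dermal Trac+ cells, 19 of 28 with *Blk* and 18 of 98 without had *Il17f*, and 24 and 23 had *Il22*. Deeper cells show more of every gene, and its part in these shares was not tested.

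Other genes of the type 17 programme, a list of 30 receptors, cytokines and signalling genes, were read in the same comparisons. This list was chosen with earlier results of these data known, so its counts beside all genes are a description and not a test. Of 29 measured in dermal Trdc+ against Trac+ cells, 4 were at least 2-fold higher and 1 lower, against 2.51% and 5.96% of all genes. The median log2 ratio was 0.32 against -0.07 for all genes. *Cd163l1*, a scavenger receptor of γδT cells, had 311 UMIs against 3 (134-fold), *5830411N06Rik* was 3.98-fold and the IL-1 receptor gene *Il1r1* 2.59-fold higher, whereas *Hif1a* (0.487), *Il22* (0.563) and *Il7r* (0.614) were lower. In Il17+ against Il17- dermal cells, 12 of 27 were 2-fold higher and 0 lower, against 3.69% and 8.89% of all genes (median 0.94 against -0.13). The highest were *Il22* (5.87-fold), *Il1r1* (3.90-fold) and the cytoskeletal gene *Actn2* (3.67-fold). *Hif1a* (0.538), *Il7r* (0.575) and *Stat3* (0.721) had the smallest ratios. *Il17a* and *Il17f* themselves, which made the split, were left out of that count. Foxp3+ cells had 1 of 27 higher, the receptor gene *Il2ra* at 4.14-fold, and 15 lower than Foxp3- cells. The shares of all genes were 9.09% and 4.84%, and the median was -1.68 against 0.15. Among the lower were *Il17a* (0.0323), *Actn2* (0.0390) and *5830411N06Rik*, with 0 UMIs against 64. *Hif1a* (1.84) and *Stat3* (1.76) had the next highest ratios there. Dermal Trdc+ cells had 20 of 28 higher than epidermal Trdc+ cells and 2 lower, against 7.25% and 28.9% of all genes (median 2.29 against -0.48). *Actn2* was at 15.7-fold, the NF-κB regulator gene *Nfkbiz* at 14.2-fold and *Tnfrsf25* at 10.7-fold. The 2 lower were *Lgals3* (0.338) and *Aqp3* (0.474), genes that keratinocytes also express, and *Cd44* was next at 1.10.

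A second list held 58 other lymphocyte transcription factors, as a contrast. It too was chosen with earlier results of these data known, and its counts are a description. In dermal Trdc+ against Trac+ cells 1 of 48 was 2-fold higher and 8 lower, against 2.51% and 5.96% of all genes (median -0.32 against -0.07). *Ikzf2* (0.252) and *Hopx* (0.334) were the lowest beside *Foxp3* (0 against 98 UMIs), and *Rbpj* (1.80), *Klf6* (1.27) and *Fos* (1.19) the highest with 50 UMIs or more. In Il17+ against Il17- cells 1 of 49 was higher and 16 lower, against 3.69% and 8.89% of all genes (median -0.68 against -0.13). *Foxp3* (0.103), *Ikzf2* (0.186) and *Hopx* (0.252) were at the bottom and *Rbpj* (1.90), *Id3* (1.84) and *Tcf12* (1.51) at the top. In Foxp3+ cells 10 of 40 were higher and 2 lower, against 9.09% and 4.84% of all genes (median 0.33 against 0.15). *Hopx* (6.99-fold), *Tox* (3.93-fold) and *Ikzf2* (3.59-fold) came first, and *Junb* (0.705), *Runx1* (0.745) and *Fos* (0.810) last. Between dermal and epidermal Trdc+ cells 12 of 42 were higher in the dermis and 10 in the epidermis, against 7.25% and 28.9% of all genes (median 0.17 against -0.48). *Ikzf3* (16.0-fold), *Nr4a1* (13.0-fold) and *Bhlhe40* (8.86-fold) stood at the dermal end, and *Tcf7* (0.174), *Ikzf1* (0.303) and *Runx2* (0.311) at the epidermal end.

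The genes whose levels over 18 cell groups were most like those of each member were named by Pearson correlation of log2(CPM + 10) among 11051 genes, as a description without a test, since groups of 1 library share its depth. *Blk* ran with *Actn2* (r = 0.980), *5830411N06Rik* (0.959) and *Cxcr6* (0.925), and *Id2* with *Laptm5* (0.941), *Ccdc12* (0.927) and *Cd48* (0.921). *Ahr* ran with *Araf* (0.934), *Mmgt2* (0.881) and *Kdm5d* (0.877), *Batf* with *Pitpnm1* (0.915), *Clk1* (0.901) and *Stk24* (0.900), and *Rora* with *Bhlhb9* (0.864), *Il2ra* (0.862) and *Abcb9* (0.862). *Maf* had lower values, with *Gpr65* (0.780), *Mb21d1* (0.742) and *Galc* (0.727). The values of *Sox13* (*Acyp2*, 0.831, *Dnaja4*, 0.742, and *Rad54l2*, 0.738) and *Zbtb16* (*Irs2*, 0.840, *Cited4*, 0.824, and *F2r*, 0.814) rested on 85 and 73 UMIs, and those of *Tbx21* on 5 UMIs, too few to name genes.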

How the data were processed

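The authors deposited 1 matrix of UMI counts per library, made with CellRanger 3.0.2 per the file headers and aligned to mm10 per the labels, and these are raw counts without normalization. Cell annotations were not used here. Barcodes entered with 200 or more genes and no more than 10% of UMIs from mitochondrial genes. The study's own limits (200 to 5000 genes, at most 5%) were an alternative. Cell types were gated by marker UMIs, with cut-offs set on the spread of the markers and not on the 9 genes, and cells past more than 1 gate were left out (514 dermal and 90 epidermal). Scrublet's automatic cut-off marked 0 dermal and 8 epidermal cells and was taken as not working, so dropping its top scores, at 0.8% per 1000 cells, was an alternative (180 dermal and 139 epidermal cells).

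UMIs were summed per group and divided by the group's total. Intervals are exact at 95% (Poisson for CPM, Clopper-Pearson for shares, conditional for ratios). Cells are not replicates, each group comes from 1 library, and so no p-value was computed. A gene was called when it had at least 20 UMIs over both groups and a difference of at least 2-fold on log2(UMIs + 0.5), scaled by the group totals. A group with 0 UMIs was bounded with 3 counts. Thinning drew 1000 UMIs from each cell with that many. In each list the 3 genes with the largest and the 3 with the smallest ratio among those with at least 50 UMIs were named. Symbols and positions came from GENCODE M21 (GRCm38), and promoter sequences from RefSeq (GRCm38.p6). The 9 genes and the lists were chosen with earlier results of these data known. The *Krt14* and *Pf4* comparisons and the epidermal cytokine split were added after the data were seen. The ratio and its interval were tested on simulated Poisson group totals for dermal Trdc+ against Trac+ cells. That simulation had no spread between cells, and gating, thinning and shares were not tested in it. Python 3.11.15, numpy 2.4.6, scipy 1.17.1, pandas 2.3.3, matplotlib 3.10.9 and scanpy 1.11.5 were used.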

Additional observations from a re-analysis of the deposited data

Results flagged for a closer look

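For 3 of the 9 genes the Trdc+ to Trac+ ratio of CPM lay on opposite sides of 1 in the layers, with both intervals excluding 1. For *Blk* it was 3.17 in dermal T cells and 0.136 in epidermal T cells. For *Ahr* it was 0.523 in the dermis and 1.99 in the epidermis, and for *Id2* 1.27 and 0.717. The share of all genes with such opposite ratios was not computed, so the count of 3 genes has no background beside it. The difference between the layers was not tested, since each layer has 1 library, and the epidermal ratios rest on 19 Trac+ cells, of which 12 were Il17+, against 12 of the 401 Trdc+ cells. *Maf* (1.02 and 0.232) and *Zbtb16* (1.81 and 0.0621) also lay on opposite sides, but with an interval that held 1 in at least 1 layer.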

How the results depend on the processing

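No paired analysis was possible because each layer has 1 library. No alternative turned the direction of a called difference, but uncalled ones changed sign: *Rora* and *Ahr* in Foxp3+ against Foxp3- cells after thinning, *Batf* and *Id2* in Il17+ against Il17- cells within Trdc+ cells, *Id2* in Trdc+ against Trac+ cells among Il17+ cells, and values near equality or of few UMIs (*Maf* and *Id2* between Trdc+ groups and their partners, *Sox13*, *Zbtb16*, *Tbx21*). The thinned *Rora* and *Ahr* ratios rest on few UMIs of 1 random draw. In another draw of 1000 UMIs, 24.4% of Foxp3+ and 24.1% of Foxp3- cells kept a *Rora* UMI, and 13.3% and 10.1% an *Ahr* UMI. At 2000 UMIs the shares were 39.0% and 25.7% for *Rora* and 12.2% and 9.46% for *Ahr*. Dermal Trdc+ against Trac+ cells (2 genes called, *Blk* and *Sox13*) gave 1, *Blk*, with the study's cell limits, without the richest cell of each group, at 1000 UMIs per cell, with *Ptprc* required or at a minimum of 50 UMIs, where *Sox13* had too few UMIs. Of the alternatives chosen after seeing the data, leaving out Foxp3+ cells gave 1 and keeping Il17+ cells gave 0. Il17+ against Il17- cells (2 called) gave 1 with the study's limits, without Scrublet's top scores, with *Ptprc*, with at least 1 cytokine UMI and within Trdc+ cells (*Ahr* in that case), and 1, added later, without Foxp3+ or without *Mki67* or *Top2a* cells. Foxp3+ against Foxp3- cells (1 called) gave 2 without Scrublet's top scores (*Rora* added), 0 at 1000 UMIs per cell, and 0, added later, against Il17- cells. Of the other summary counts, 22 planned and 8 added ones stayed within 1.5 times. A count within that range did not always hold the same genes. In Trdc+ against Trac+ cells *Ahr* took the place of *Sox13* with at least 2 *Trdc* UMIs and without *Mki67* or *Top2a* cells, and joined it by mean single-cell CPM. Between the layers *Batf* took the place of *Blk* after thinning (*Blk* at 16 against 3 UMIs) and among cells without cytokine UMIs (19 against 0), both under 20 UMIs. *Rora* took the place of *Sox13* in the thinned Il17 split. For single genes 266 planned and 94 added values lay within the counting interval of the main value, and 28 and 21 lay outside it. That interval is wide for sparse genes, so a value within it was not always stable. In Trdc+ against Trac+ cells the *Tbx21* ratio had an interval of 0.0938 to 17.9, and its log2 ratio ranged from -0.56 to 2.5 over the settings. Depth limits *Sox13*, *Zbtb16* and *Tbx21*, which had 24, 13 and 4 UMIs in dermal T cells.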
